A study of Mus musculus with 4 samples.

Results

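The 10 genes described here are Fabp4, Fabp5, Cd36, Lpl, Lipe, Pnpla2, Abhd5, Plin2, Plin3 and Plin4, which encode lipid-binding proteins, lipases with a co-activator, and lipid droplet coat proteins of fat cells. They were taken by gene symbol, with no threshold on their values, from the 16051 genes of the deposited mouse table. The symbols matched 11 rows, because Plin2 stands on 2 of them. One of these is the protein-coding gene. The other is, by its NCBI Gene identifier 101055843, the transcribed pseudogene Gm12551 in RefSeq, which overlaps one end of the Plin2 locus and had 0 and 2 counts in the DMSO libraries and 0 and 1 in the risperidone libraries, and it was left out.

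The study sequenced mRNA from differentiated 3T3-L1 cells, a mouse line derived from NIH SWISS embryo tissue that can be driven to form adipocytes. Cells received either DMSO, the vehicle, or 100 μM risperidone, an antipsychotic drug, for 48 h. Each treatment has 2 libraries, and RNA of 3 cultures was combined for every one of them. The question was which transcripts accompany the lipid accumulation that the drug was studied for. The labels call the control untreat, where the methods name DMSO, and their extraction text speaks of retinas. All cells are of 1 line, and p-values therefore measure only the spread between libraries of pooled cultures.

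Fat cells store triglyceride in droplets that are covered by perilipins. Stored triglyceride is cleaved stepwise, first by adipose triglyceride lipase, encoded by Pnpla2 and activated by the Abhd5 product, and then by hormone-sensitive lipase, encoded by Lipe. Lipoprotein lipase, encoded by Lpl, is secreted and releases fatty acids from circulating lipoproteins. CD36 helps fatty acids to enter the cell, and the small proteins encoded by Fabp4 and Fabp5 carry them inside it.

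The libraries held between 15883712 and 16374119 counts, so that 3 counts, the limit a count of 0 allows, correspond to 0.183 to 0.189 CPM. A gene was tested where its FPKM (fragments scaled to transcript length and to library depth) averaged 1 or more over the 4 libraries, which left 10243 genes. The labelled cell type was checked against its markers before the results. Of 12 mature adipocyte markers, 4 were abundant enough to test, namely Fabp4, Lpl, Lipe and Pparg, the regulator of fat cell genes. Adipoq, Lep, Cidec, Slc2a4 and Retn stayed at or below 3 counts in every library, so most defining markers of mature fat cells were at or near 0. Risperidone replicate 2 stood apart, with a summed level of 15 kidney markers of 389 FPKM against 3.44 to 6.07 FPKM in the other libraries. Its Kap count was 1048, against 8 to 16 elsewhere. Among preadipocyte and fibroblast markers, 10 of 12 were tested, of which 4 were higher and 4 lower with risperidone, beside 32.1% and 32.2% of all tested genes. They include Dlk1 (log2 fold change 1.52), which marks preadipocytes, and the collagen gene Col3a1 (−0.96). The summed level of 10 macrophage markers was 15.3 to 17.7 FPKM, with 4 of the 10 not in the table, but Cd68 was higher (1.19) and Cd14 lower (−0.35) with risperidone. The summed level of 10 retina markers was 0.86 to 1.28 FPKM, within which Crx went from 1 and 2 counts in DMSO to 41 and 35 with risperidone.

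The perilipin promoters are shown because Plin2 and Plin4 were lower with risperidone and Plin3, their relative, was not. For each, the 250 bases before the start given by the RefSeq promoter table (GRCm38.p6) were searched. The Plin2 and Plin4 starts lie inside the RefSeq gene span, so that 158 and 166 of these bases are within it, and the bases outside the span are printed, 92 for Plin2, 84 for Plin4 and all 250 for Plin3. They run 5′ to 3′ on the gene's strand in lower case, with capitals for every match on either strand to any of 4 motifs, overlaps allowed. The first is AGGTCA, the core site that nuclear receptors such as the regulator encoded by Pparg bind. The next, CACGTG, is an E-box, which is bound by basic helix-loop-helix factors. The other two are GGGCGG, known as the GC box that Sp1-type factors bind, and the TATA motif, searched as TATAA. The TATA motif was added to the search after the Plin4 window had been read.
Plin2, chr4:86670218-86670309, minus strand: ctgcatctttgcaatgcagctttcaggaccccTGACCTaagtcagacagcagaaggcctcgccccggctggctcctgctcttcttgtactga
Plin3, chr17:56290512-56290761, minus strand: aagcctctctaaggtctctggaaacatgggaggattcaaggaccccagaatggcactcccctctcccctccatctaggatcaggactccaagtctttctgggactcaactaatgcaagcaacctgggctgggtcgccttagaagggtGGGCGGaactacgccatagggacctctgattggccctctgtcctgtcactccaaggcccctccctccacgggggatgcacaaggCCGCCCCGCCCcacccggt
Plin4, chr17:56109949-56110032, minus strand: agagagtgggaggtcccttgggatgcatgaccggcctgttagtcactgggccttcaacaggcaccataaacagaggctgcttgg

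The Plin2 window held 1 nuclear receptor core site, on the opposite strand, 218 bases before the start. The Plin3 window held 3 GC boxes, at 103, 19 and 14 bases before the start, of which the last 2 overlap. The Plin4 window held 1 TATA motif, 32 bases before its start, in the part inside the gene span that is not printed. Of all 32851 promoter windows in the table, 14.0% held the nuclear receptor core site, 32.7% the GC box, 22.8% the TATA motif and 6.02% the E-box. Among the other genes, the only E-box stood in the window of 1 of the 2 Lipe starts, at chr7:25395988-25396237 on the minus strand, 155 bases before it and together with 6 GC boxes. The nuclear receptor core site also stood in the windows of Abhd5 and Cd36, and GC boxes in those of Abhd5, Cd36 and Pnpla2. No core site stood in the windows of Plin3, Plin4 and Pnpla2 or of either Lipe start. The windows of both Lipe starts and of Cd36 lie wholly inside the gene spans. Promoter entries were matched for Abhd5, Cd36, Lipe, Plin2, Plin3, Plin4 and Pnpla2. A match describes letters only.

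In DMSO, the 10 genes covered a wide range of levels per length. Lpl was the most abundant, at 234 and 250 FPKM, followed by Plin2 and Fabp4, whose libraries overlapped. Pnpla2, Plin3 and Plin4 came next, and then Fabp5 and Abhd5, which again overlapped. Lipe, at 7.23 and 7.88 FPKM, and Cd36, at 1.14 and 1.21 FPKM, stood far below the rest. Against all tested genes, the mean level in DMSO lay at percentile 97.5 for Lpl, 29.8 for Lipe and 1.71 for Cd36. With risperidone, Lpl and Plin2 kept places 1 and 2, Fabp4, Pnpla2 and Fabp5 formed an overlapping group, and Plin4 went from place 6 to place 8. All 10 genes together took 0.194% and 0.203% of the counts in DMSO and 0.156% and 0.157% with risperidone.

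**Figure D1:**
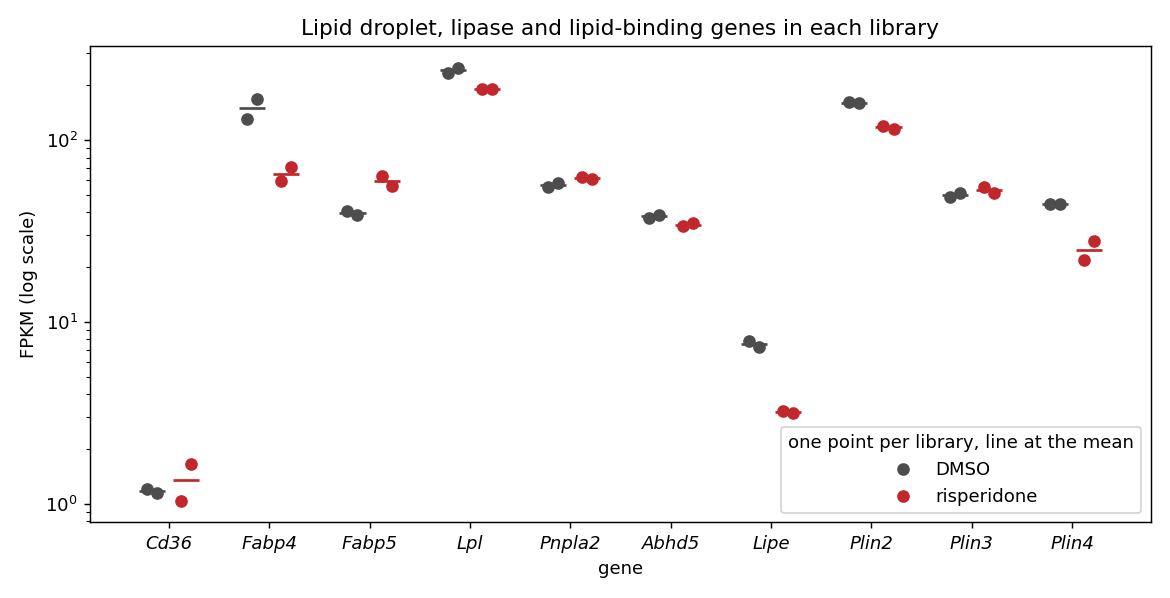
FPKM on a log axis for each of the 10 genes, with 1 point per library and a line at the mean of the 2 libraries of a treatment. The risperidone libraries lie below the DMSO libraries for Fabp4, Lpl, Abhd5, Lipe, Plin2 and Plin4 and above them for Fabp5, Pnpla2 and Plin3, and those of Cd36 overlap.

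Risperidone was followed by lower Lipe, Fabp4, Plin4, Plin2 and Lpl and by higher Fabp5, Pnpla2 and Plin3, of which the last 2 were not higher on the TPM scale. Abhd5 and Cd36 did not pass the test. Thus 5 of 10 genes were lower and 3 higher in edgeR (quasi-likelihood F-test, Benjamini-Hochberg adjusted p under 0.05), beside 32.2% and 32.1% of all tested genes, and 64.3% in either direction. The median log2 fold change of the 10 genes was −0.15, against 0.00 over all genes tested. It was −0.06 with offsets for length together with GC content and −0.39 on the TPM scale, where the median of all genes was −0.22. Lipe and Fabp4 fell by more than 1 on the log2 scale, which 3.91% of tested genes did, and none of the 10 rose by 1 or more, which 2.61% of tested genes did. The FPKM ranges of the treatments did not overlap for 9 of the 10 genes (6 lower, 3 higher), as for 82.2% of tested genes (49.8% lower, 32.4% higher). In bulk RNA, fewer cells of a type and less RNA per cell cannot be told apart.

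**Figure D2:**
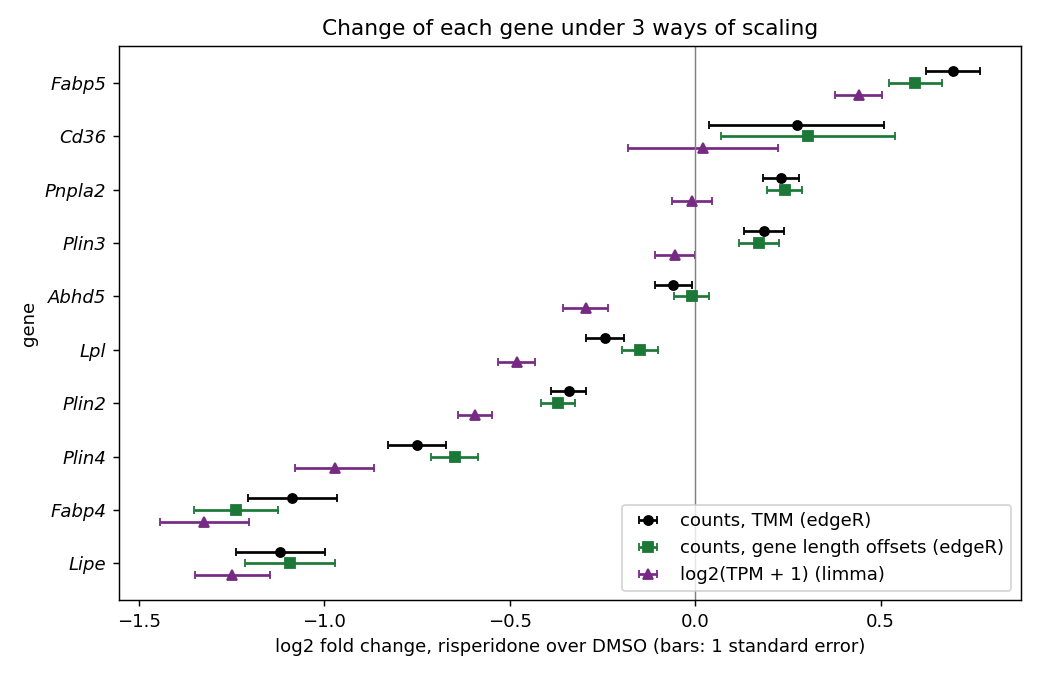
Log2 fold change (risperidone over DMSO) of each gene with bars of 1 standard error, from edgeR with TMM factors, from edgeR with gene length offsets, and from limma on log2(TPM + 1). Fabp4, Lipe, Plin2, Plin4 and Lpl lie below 0 and Fabp5 above 0 in each, whereas Pnpla2 and Plin3 lie above 0 in both edgeR fits and slightly below 0 on the TPM scale, at −0.01 and −0.05.

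The fatty acid binding proteins moved in opposite directions. Fabp4 (identifier 11770, chr3:10204342-10208616, minus strand), the adipocyte form, measured 130 and 169 FPKM in DMSO and 59.5 and 71.2 FPKM with risperidone. Both risperidone libraries were below both DMSO libraries. The means were 149 ± 27.3 and 65.3 ± 8.25 FPKM (SD, n = 2), and the log2 fold change was −1.09 (SE 0.120, adjusted p = 1.64e-05, edgeR's quasi-likelihood test).

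Fabp5 (16592, chr3:10012585-10016610, plus strand), the epidermal form, which many cell types express, lies on the same chromosome as Fabp4. It measured 40.8 and 38.7 FPKM in DMSO and 63.7 and 56.0 FPKM with risperidone. Both risperidone libraries were the higher ones, with a log2 fold change of 0.69 (SE 0.0728, adjusted p = 1.15e-05, edgeR). On the TPM scale it was 0.44, or 0.66 relative to the median of all genes. Of the 50-base stretches of its GENCODE transcripts, 5.48% also occur in other genes, mostly in Gm6166, so some of its reads could have been assigned elsewhere.

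Within a library, the ratio of Fabp5 to Fabp4 does not depend on the scaling between libraries. It was 0.313 and 0.230 in DMSO and 1.07 and 0.787 with risperidone. Fabp4 made up 76.1% and 81.3% of the sum of both in DMSO and 48.3% and 56.0% with risperidone, while that sum went from 171 and 207 FPKM to 123 and 127 FPKM. No test was made of these ratios, as 2 against 2 libraries cannot give an exact two-sided permutation p below 0.333.

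**Figure D3:**
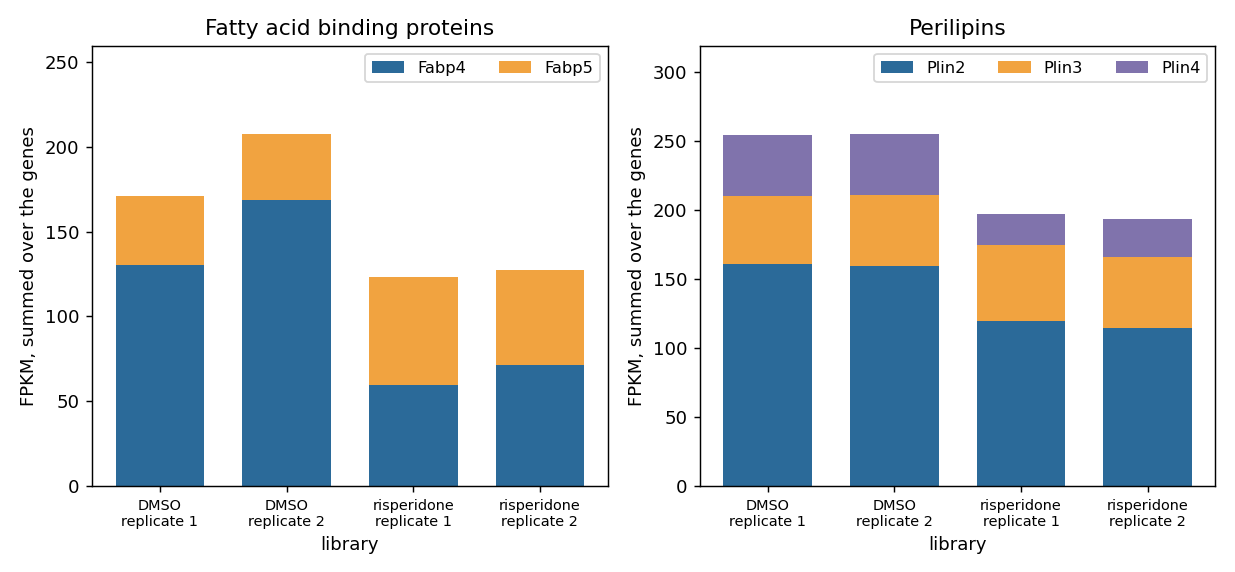
FPKM of the fatty acid binding proteins (left) and of the perilipins (right), stacked per library from 0. The risperidone bars are shorter in both panels, and the shares of Fabp4 and Plin4 in them are smaller than in the DMSO bars.

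Cd36 (12491, chr5:17781690-17888959, minus strand), the fatty acid translocase, was close to the limit of 1 FPKM set for testing. Its counts were 56 and 50 in DMSO and 49 and 71 with risperidone, or 1.21 and 1.14 against 1.04 and 1.66 FPKM. The DMSO values lay between the risperidone values, and the log2 fold change of 0.27 (SE 0.237) had an adjusted p of 0.330 in edgeR. Without risperidone replicate 2, the library with the kidney transcripts, it was −0.02, and without risperidone replicate 1 it was 0.52. The summed level of 8 endothelial markers was 1.34 FPKM in risperidone replicate 2 and 0.16 to 0.28 FPKM in the others, and its part in the Cd36 value was not tested.

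Of the lipases, Lipe showed the deepest fall and Pnpla2 a small rise. Lipe (16890, chr7:25379527-25398486, minus strand), hormone-sensitive lipase, measured 7.88 and 7.23 FPKM in DMSO and 3.24 and 3.17 FPKM with risperidone. The treatments did not overlap, and the libraries of a treatment lay close together. Its log2 fold change was −1.12 (SE 0.120, adjusted p = 1.35e-05, edgeR), a fold of 0.461, on 137 to 352 counts per library.

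Pnpla2 (66853, chr7:141455188-141460743, plus strand), adipose triglyceride lipase, measured 54.9 and 58.3 FPKM in DMSO and 62.8 and 61.4 FPKM with risperidone. The gap between the treatments was smaller than that between the DMSO libraries. The log2 fold change was 0.23 (SE 0.0488, adjusted p = 0.00164, edgeR), and −0.01 on the TPM scale. Relative to the median of all genes on that scale it was 0.22.

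Abhd5 (67469, chr9:122351616-122381524, plus strand), also known as CGI-58, activates adipose triglyceride lipase. It measured 37.4 and 38.9 FPKM in DMSO and 33.6 and 34.9 FPKM with risperidone. The ranges did not overlap, but with TMM factors the log2 fold change was −0.06 (SE 0.0488, adjusted p = 0.316, edgeR). With library size as the only scaling it was −0.15 and passed the test (adjusted p = 0.0207).

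The proportions of Lipe and of Abhd5 to Pnpla2 therefore differed between the treatments. The ratio of Lipe to Pnpla2 was 0.144 and 0.124 in DMSO and 0.0516 in both risperidone libraries. The ratio of Abhd5 to Pnpla2 was 0.682 and 0.667 in DMSO and 0.535 and 0.568 with risperidone. Both ratios were lower in each risperidone library than in either DMSO library.

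Lpl (16956, chr8:68880555-68906932, plus strand), lipoprotein lipase, measured 234 and 250 FPKM in DMSO and 192 and 191 FPKM with risperidone. Both risperidone libraries were below both DMSO libraries, on 11967 to 15569 counts. The log2 fold change was −0.24 (SE 0.0508, adjusted p = 0.00154, edgeR). It was −0.13 (adjusted p = 0.0295, edgeR) with offsets for length together with GC content and −0.48 on the TPM scale, or −0.26 relative to the median of all genes. Lpl stayed the most abundant of the 10 genes in every library.

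The perilipins did not move as a group. Plin2 (11520, chr4:86626910-86670217, minus strand), the perilipin found on droplets of most cell types, measured 161 and 160 FPKM in DMSO and 120 and 115 FPKM with risperidone. The treatments were well apart, with a log2 fold change of −0.34 (SE 0.0468, adjusted p = 8.29e-05, edgeR). On the TPM scale it was −0.59, or −0.37 relative to the median of all genes. Of its 50-base stretches, 2.57% also occur in Gm12551.

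Plin4 (57435, chr17:56100587-56109948, minus strand), a perilipin of fat and muscle cells, measured 44.5 FPKM in both DMSO libraries and 22.01 and 27.93 FPKM with risperidone. The DMSO libraries were nearly equal, and risperidone replicate 2 lay between them and risperidone replicate 1. The log2 fold change was −0.75 (SE 0.0779, adjusted p = 1.07e-05, edgeR).

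Plin3 (66905, chr17:56278962-56290511, minus strand), also called TIP47, is a soluble perilipin that binds young droplets. It measured 48.7 and 50.9 FPKM in DMSO and 54.9 and 51.0 FPKM with risperidone. The lower risperidone library and the higher DMSO library were nearly equal, and the log2 fold change was 0.19 (SE 0.0549, adjusted p = 0.0118, edgeR). That call was lost without DMSO replicate 1 (0.16, adjusted p = 0.172), without DMSO replicate 2 (0.22, adjusted p = 0.0574) and without risperidone replicate 1 (0.13, adjusted p = 0.0646). On the TPM scale the value was −0.05, or 0.17 relative to the median of all genes.

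Per library, the ratio of Plin3 to Plin2 was 0.302 and 0.319 in DMSO and 0.458 and 0.444 with risperidone, and that of Plin4 to Plin2 was 0.276 and 0.279 against 0.184 and 0.243. The summed level of the 3 perilipins was 255 FPKM in both DMSO libraries and 197 and 194 FPKM with risperidone. Plin2 held 62.6% to 63.4% of that sum in DMSO and 59.3% to 60.9% with risperidone, whereas Plin3 went from 19.1% and 19.97% to 27.9% and 26.3%.

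Gene length moved with the change across all tested genes. The median log2 fold change fell from 0.12 in the shortest to −0.11 in the longest of 5 equal classes of genes by length. Why length and change moved together was not tested. Fabp4 and Fabp5 are both in the shortest class, and they moved in opposite directions. Plin4 is in the longest class. With offsets for gene length, the counts stayed at 3 genes higher and 5 lower, and Lpl went from −0.24 to −0.15 (adjusted p = 0.0162, edgeR). In the same fit Fabp4 was −1.24, Fabp5 0.59 and Plin4 −0.65, against −1.09, 0.69 and −0.75 without these offsets.

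Related genes were counted in 4 lists that do not hold the 10 genes, and their counts stand beside the 32.1% of all tested genes that were higher, the 32.2% that were lower and the 64.3% called in either direction. The share called was 77.8% in the droplet list, 63.6% in the lipolysis list, 72.7% in the lipoprotein list and 75.0% in the fatty acid list. Of 26 lipid droplet coat and biogenesis genes, 18 were tested, of which 3 were higher, 11 lower and 4 not called, with a median log2 fold change of −0.37. Hilpda, a hypoxia-inducible droplet protein that inhibits adipose triglyceride lipase, measured 73.6 and 80.3 FPKM in DMSO and 27.6 and 25.2 FPKM with risperidone, a log2 fold change of −1.44 (adjusted p = 7.79e-08, edgeR). Vps13c, a lipid transfer protein, fell by 1.10 and Hsd17b11, a droplet-located dehydrogenase, by 0.82 on the log2 scale. The largest rises were those of Cav2 (0.69), a caveolin, Spg20 (0.59), which encodes spartin, and Aup1 (0.55).

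Perilipins and droplet proteins that mark mature fat cells were scarce. Plin1, the main perilipin of white fat cells, had 9 and 14 counts in DMSO and 1 in each risperidone library, and was too low for the test. Without a filter on low values its adjusted p was 0.0201 in edgeR, where 37.6% of genes were called. Plin5 had 1 and 3 counts against 0 and 0, Cidec 0 and 1 against 0 and 2, and G0s2, an inhibitor of adipose triglyceride lipase, 1 and 0 against 0 and 3. These 3 genes showed no difference that could be detected at this depth.

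Of 26 genes of lipolysis enzymes and regulators, 11 were tested, of which 4 were higher, 3 lower and 4 not called, with a median of 0.05. Prkacb (0.37) and Prkaca (0.24), catalytic subunits of protein kinase A, and Gnas (0.27), a stimulatory G protein subunit, were higher on the log2 scale. Prkar2b (−0.57), a regulatory subunit of the same kinase, Pnpla6 (−0.28), a phospholipase, and Adcy6 (−0.22), an adenylyl cyclase, were lower. The Adcy6 call was lost without DMSO replicate 1 (−0.21, adjusted p = 0.0581, edgeR). On the TPM scale Prkacb, Gnas and Prkaca, at 0.13, 0.03 and 0.00, no longer passed the test. Mgll, monoglyceride lipase, which acts after Lipe, had 3 and 2 counts in DMSO and 1 and 9 with risperidone.

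Of 21 genes that handle lipoprotein lipase or take up lipoproteins, 11 were tested, of which 3 were higher, 5 lower and 3 not called, with a median of 0.01. Vldlr, a lipoprotein receptor, was lower by 0.65, Sdc4, a heparan sulphate proteoglycan, by 0.41 and Furin, a protease, by 0.41. Angptl4, a secreted inhibitor of lipoprotein lipase, measured 226 and 217 FPKM in DMSO and 189 and 181 FPKM with risperidone, a log2 fold change of −0.16 (adjusted p = 0.0148, edgeR). Sel1l was higher by 0.21, but stood at −0.02 on the TPM scale and lost its call without DMSO replicate 2 (0.18, adjusted p = 0.0508, edgeR). Apoe had 23 and 25 counts against 29 and 91, and its log2 fold change of 1.41 became 0.36 (adjusted p = 0.395, edgeR) without risperidone replicate 2. Gpihbp1, which anchors lipoprotein lipase on capillaries, had 1 and 0 counts against 0 and 3.

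Of 28 genes of fatty acid uptake, binding and activation, 16 were tested, of which 8 were higher, 4 lower and 4 not called, with a median of 0.16. Without risperidone replicate 2 the counts were 7 higher and 5 lower. Acbd3 (0.72), an acyl-CoA binding domain protein, and Acsl3 (0.62), an acyl-CoA synthetase found at droplets, were higher on the log2 scale. Acsl5 (−0.52), another acyl-CoA synthetase, Slc27a4 (−0.45), a fatty acid transport protein, and Zdhhc4 (−0.30), a palmitoyltransferase, were lower. Slc27a2 had 5 and 2 counts in DMSO and 0 and 459 with risperidone. Its log2 fold change of 6.08 rested on risperidone replicate 2, where the kidney markers stood high, and without that library it was −4.83 (adjusted p = 0.152, edgeR). Fabp3, the heart form, had 0 and 2 counts in DMSO and was also near 0 with risperidone.

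**Figure D4:**
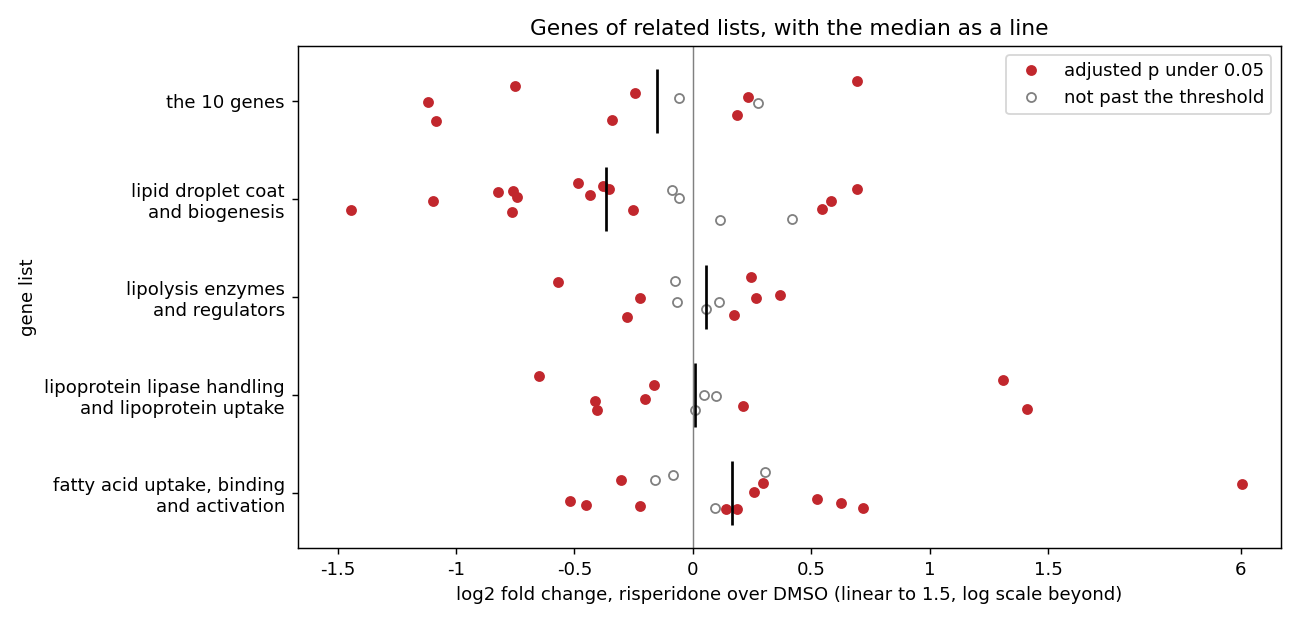
Log2 fold changes (risperidone over DMSO, 1 point per tested gene, linear to 1.5 and log-scaled beyond) of the 10 genes and of the 4 related lists, with a line at each median and filled points at an adjusted p under 0.05. The median is −0.15 for the 10 genes and −0.37 for the droplet list, and lies between 0.01 and 0.16 for the other lists, and the point at 6.08 is Slc27a2.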

How the data were processed

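mRNA of 4 libraries was analysed, 2 per treatment, each pooled from 3 cultures and sequenced on an MGISEQ sequencer after removal of adaptor, poly-N and low-quality reads. The submitters' processing notes name Bowtie2, RSEM, DESeq2 and GRCm38.p6, without roles or versions. The deposited estimated counts (expected counts) per gene are not normalized, and 90.1% to 90.4% of the values above 0 are whole. FPKM values were calculated by the authors from mapped reads. The deposited TPM values sum to 1000000 in each library. Averages of the authors were not used.

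Groups were taken from the labels. Counts were rounded and fitted across all genes in R 4.3.3 with edgeR 4.0.16 (TMM, quasi-likelihood F-test, two-sided, risperidone over DMSO). A filter kept the 10243 of 16051 genes that averaged 1 FPKM or more, and p-values were adjusted by Benjamini-Hochberg over them, with a threshold of 0.05. TMM factors were 1.03, 1.03, 0.963 and 0.973, with a biological coefficient of variation of 0.0468. The test was checked on simulated counts, where it recovered nearly all changed genes with few false calls. In another simulation, longer genes were made higher with risperidone, a trend steeper than that in the data and in the opposite direction. There the test made false calls at a large share of unchanged genes, unless length offsets were used. In the data, length offsets gave 3549 genes higher and 3075 lower, against 3287 and 3303 in the main test. The floor of 3 counts covers counting error only.

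The members and lists were chosen with earlier results of these data known. All 10 genes are named. From each list the text names the 3 largest rises and 3 largest falls past the threshold, and Plin1, Plin5, Cidec, G0s2, Hilpda, Mgll, Angptl4, Gpihbp1 and Fabp3 whatever their values. One gene of these is not reported here. Retn, Pparg, Dlk1, Col3a1, Cd68, Cd14 and Crx were named after their values were seen. Alternatives were DESeq2 1.42.0, RLE factors, library size only, filters of 0 and 5 FPKM, limma 3.58.1 on FPKM, TPM and quantile-normalized values, gene length offsets, a replicate block and each library left out. Offsets for length with GC content and the crossed block were added after seeing the data. Promoters and positions are from RefSeq (GRCm38.p6), and shared 50-base stretches from GENCODE M21 transcripts.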

Additional observations from a re-analysis of the deposited data

How the results depend on the processing

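Fabp4, Fabp5, Lipe, Lpl, Plin2 and Plin4 kept their direction and passed the test in all 17 alternatives, Pnpla2 in 16, Plin3 in 8, and Abhd5 passed in 4. Of 394 values recomputed, 360 kept their direction and side of the threshold, or stayed within the limit set for counts and values.

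The cause of the following differences was not tested. On log2(TPM + 1), whose median over all genes was −0.22, Pnpla2 was −0.0079 and Plin3 −0.055, Abhd5 passed at −0.29, 1 of the 10 genes was higher, and 1536 genes were higher and 5292 lower in all, against 3287 and 3303 in the main test. There, lipolysis genes gave 0 higher and 6 lower, lipase handling genes 1 higher, and fatty acid genes 3 higher and 7 lower. With library size as the only scaling (2500 higher and 4092 lower), Abhd5 passed at −0.15 and Plin3 failed at 0.092. With limma on log2(FPKM + 1) (2420 and 3975) Abhd5 passed at −0.15 and Plin3 failed at 0.086, and with a pseudocount of 0.1 (2423 and 3971) they stood at −0.16 and 0.088. Both gave 1 lipase handling gene and 4 fatty acid genes higher. Plin3 failed at 0.18 without a filter and at 0.0917 with quantile normalization, which gave 2 lipolysis genes higher and 6 lower and 5 fatty acid genes higher. At a mean of at least 5 FPKM, 1 lipase handling gene was higher and Cd36 was not tested. With offsets for length and GC content Abhd5 was 0.0073 and Lpl −0.13. Lpl was −0.38 with quantile normalization, and on log2(TPM + 1) Lpl was −0.48, Plin2 −0.59 and Fabp5 0.44. Pnpla2 passed at 0.14 with library size only, 0.13 and 0.14 with limma on FPKM and 0.13 with quantile normalization. The median of the 10 genes was −0.08 with length offsets, −0.24 to −0.25 with library size only and limma on FPKM, −0.25 with quantile normalization and −0.27 at a mean of at least 5 FPKM, where Cd36 is missing. The Lipe to Pnpla2 ratio with risperidone was 0.0519 from counts per length.

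Leaving out each library in turn gave Fabp4 −1.26 to −0.89, Fabp5 0.60 to 0.79, Lipe −1.20 to −1.03, Lpl −0.29 to −0.20, Plin2 −0.37 to −0.31, Plin4 −0.91 to −0.61, Pnpla2 0.19 to 0.27, Plin3 0.13 to 0.24, Abhd5 −0.08 to −0.03 and Cd36 −0.024 to 0.52. Lipase handling genes gave 2 to 3 higher and 3 to 5 lower, and of the 10 genes 2 to 3 were higher and 5 lower.

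The labels do not say that replicate numbers pair the libraries, and the deviations of same-numbered libraries correlated at −0.11. With a replicate block, 3292 genes were higher and 3321 lower, and with the crossed block 3474 and 3519, with 3 and 5 of the 10 genes in both. DESeq2 called 2639 and 2653. At 2 libraries per treatment the spread rests on few degrees of freedom, and Cd36 and Plin1 are limited by their counts.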
